A study of Mus musculus with 10 samples.

Results

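The CITED family comprises small transcriptional coregulators that bind no DNA themselves. Its members share a carboxy-terminal acidic stretch that binds the histone acetyltransferases CREBBP and EP300, and they link these enzymes to DNA-binding partners such as TFAP2, SMAD and LHX factors. Cited1 is a marker of the least committed nephron progenitors in the cap mesenchyme of the mouse kidney, and its product is also known to modulate SMAD4, beta-catenin and oestrogen receptor activity. Cited2 is broadly expressed in embryos, is itself induced by hypoxia, and its product competes with HIF1A for the same surface of CREBBP and EP300. Cited4 is known mainly from heart and mammary gland, where it also acts as a TFAP2 coactivator.

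Members were taken by gene name, as the non-control probes named Cited1, Cited2 or Cited4. This gave 3 genes of 34607 names and 4 probes of 55681, since Cited2 had 2 probes. Expression had been measured on 10 single-colour Agilent arrays in 5 groups of 2, all from C57BL6J/ICR mice with a Six2-GFP transgene, in which the fluorescent protein stands for Six2, a transcription factor of nephron progenitors. The 8-day and 19-day cultures held E11.5 Six2-positive cells kept for those times in conditioned media. P0 progenitors and E11.5 progenitors were Six2-GFP-positive cells sorted from transgenic animals at birth and at the embryonic stage E11.5, and P0 non-progenitors lacked GFP and came from the same age at birth. The labels give no treatment besides culture, no genotype other than the transgene, and neither say whether cultured cells were sorted again nor whether replicates came from separate litters or cultures, so p-values measure only the spread between these samples, which may be technical. Birth is the age in the labels, which were followed, although the deposited file titles say E19.5.

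The probes decide what was measured, so those that carried the Cited1 and Cited2 results are shown here from the array files, 5′ to 3′. Capitals mark bases that are identical when the longest run shared by both is aligned.
Cited1: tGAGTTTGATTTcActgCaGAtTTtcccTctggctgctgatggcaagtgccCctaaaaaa
Cited2: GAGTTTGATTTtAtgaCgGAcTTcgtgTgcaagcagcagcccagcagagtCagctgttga
The longest identical run was 11 bases, and 19 of 59 aligned bases (32.2%) were the same. The Cited1 probe lies on chromosome X from 99442776 to 99442835 on the minus strand of mouse assembly mm9, the build of the array design. The Cited2 probe shown lies on chromosome 10 from 17444502 to 17444561 on the plus strand, and the other Cited2 probe lies from 17444690 to 17444749 on the same strand. The Cited4 probe lies on chromosome 4 from 120340245 to 120340304 on the plus strand. Each probe had 60 bases and 1 spot per array.

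All values below are log2 intensities minus the array's own 75th percentile, so 0 stands for a spot as bright as that percentile. Levels of different probes are not set against each other, because probes differ in how strongly they bind. All 4 probes were well above background on 10 of 10 arrays, and no spot on any array was saturated. Across the arrays 60.4% to 69.8% of spots were well above background, and replicates of a group differed by a root mean square of 0.830 in P0 progenitors up to 1.22 in E11.5 progenitors. The 2 replicates of the 8-day culture lay on different slides, replicate 1 with every array of freshly sorted cells (slide 1) and replicate 2 with the 19-day arrays (slide 2). Slide and time in culture are thus separable only by way of these 2 arrays.

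Six2, the gene that drives the reporter, was at 4.27 and 4.11 in P0 progenitors, at 4.70 and 4.82 in E11.5 progenitors and at -2.26 and -4.55 in P0 non-progenitors, so that the sort and the labels went the same way. In 8-day culture Six2 was at 5.21 and 4.61, and in 19-day culture at 1.06 and 2.32. In P0 non-progenitors the summed signal of 5 proximal tubule markers was 6022 and 6584 percent of the 75th percentile, against 29.6 to 271.8 percent in the other 8 arrays, and the sums for 5 podocyte, 6 ureteric bud, 5 endothelial and 6 erythroid markers were also highest in P0 non-progenitors. The stroma, early nephron and leukocyte sums were not highest there, with leukocyte sums of 1608 and 1804 percent against 1934 and 1754 percent in P0 progenitors. The sum of 6 nephron progenitor markers was 60777 and 68052 percent in P0 non-progenitors, near the 74600 and 71596 percent in P0 progenitors. Their mean log2 values were 0.69 and 0.11 against 3.20 and 3.11. Fewer cells of a type and less RNA per cell cannot be told apart in these bulk samples.

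Cited1 was the member that varied most. In P0 progenitors it was at 6.03 and 5.53, in E11.5 progenitors at 3.00 and 3.64, and in P0 non-progenitors at 1.33 and 0.45. The 3 groups of freshly sorted cells did not overlap, with both P0 progenitor arrays above both E11.5 arrays and these above both arrays of GFP-negative cells. With 2 arrays a group, non-overlap here and below can readily arise by chance. The share of all genes that show it was not counted. In cultured E11.5 cells Cited1 was at 0.56 and 1.68 after 8 days and at 0.60 and -0.48 after 19 days. All 4 culture arrays were below both E11.5 arrays. The cultures overlapped with each other and with P0 non-progenitors.

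**Figure D1:**
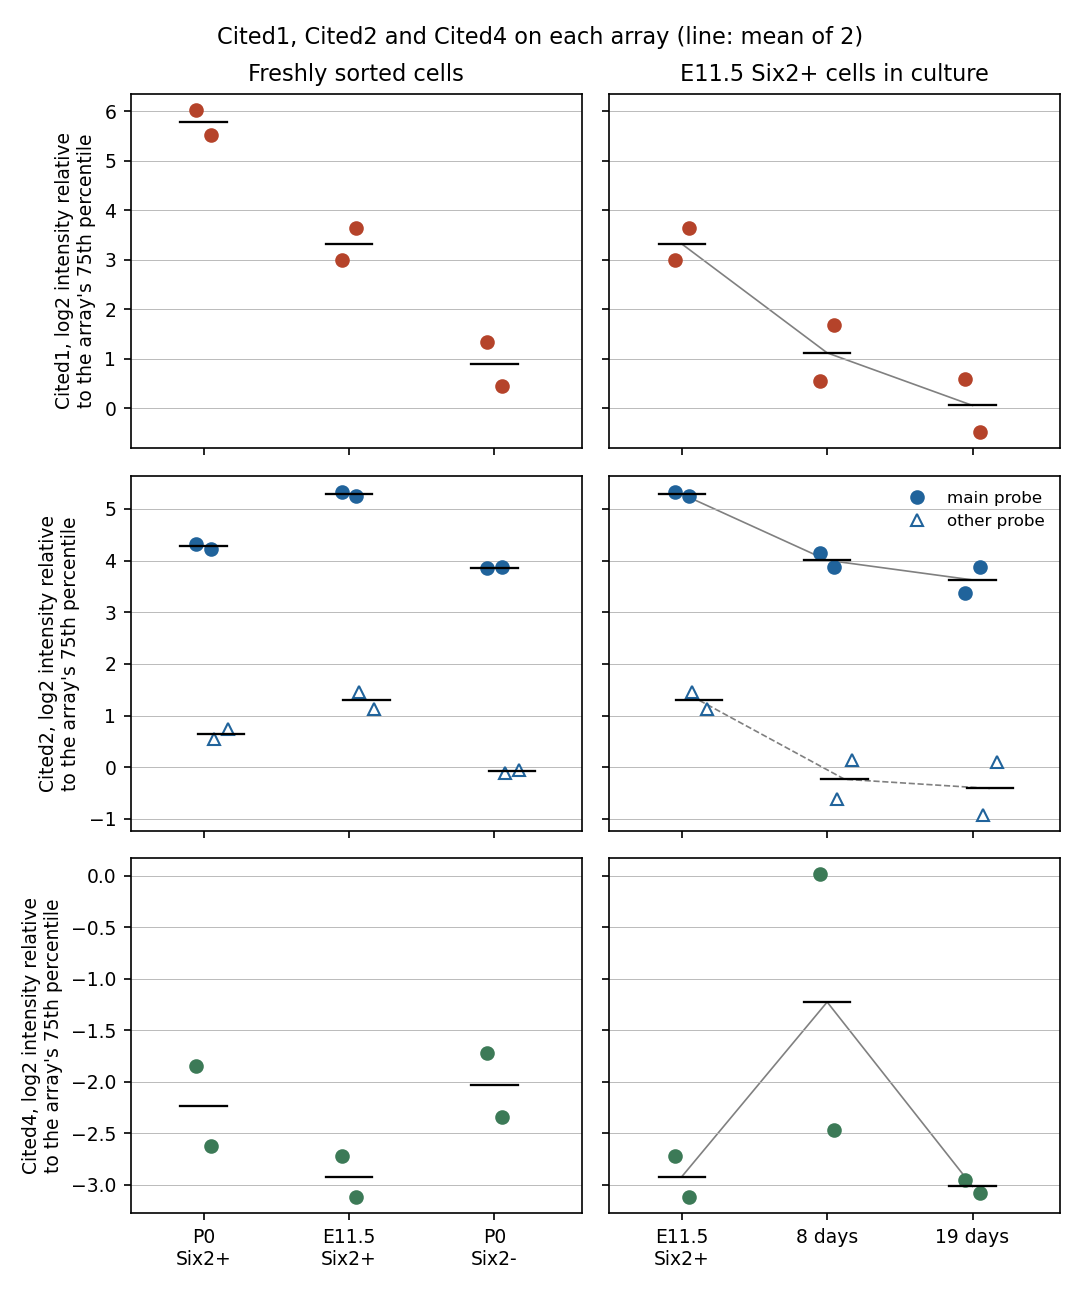
Log2 intensity relative to the array's 75th percentile (vertical axis) of Cited1, Cited2 and Cited4 in freshly sorted cells (left) and in E11.5 cells over days of culture (right), with E11.5 progenitors drawn in both columns. Points are arrays, black bars are means of 2, and open triangles are the other Cited2 probe. Cited1 was highest in P0 progenitors at 6.03 and 5.53, Cited2 in E11.5 progenitors at 5.33 and 5.25, and Cited4 on 1 array of 8-day culture at 0.01.

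Cited1 averaged 5.78 ± 0.36 in P0 progenitors and 0.89 ± 0.63 in P0 non-progenitors (SD, n = 2 each). It was 29.6-fold higher in P0 progenitors, a log2 change of 4.89 with an SE of 0.53 (95% interval 3.65 to 6.13; limma, adjusted p = 0.00274), and 8.4% of 26205 tested genes passed in that comparison. In E11.5 progenitors, which averaged 3.32 ± 0.45 (SD, n = 2), Cited1 was 5.39-fold higher than in P0 non-progenitors (limma, adjusted p = 0.0197), and 17.8% of genes passed there. In that comparison age and Six2-GFP status differ together, since no GFP-negative group of E11.5 was analysed here. The E11.5 difference did not pass without E11.5 progenitors replicate 2 or P0 non-progenitors replicate 2, at an adjusted p of 0.0811 or 0.111 in limma.

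Between the ages, Cited1 was higher in P0 progenitors than in E11.5 progenitors by 2.46 on the log2 scale (SE 0.53, 95% interval 1.22 to 3.70), which narrowly missed the threshold (limma, adjusted p = 0.0504), with 3.96% of genes passing. It passed under 6 of 14 other settings, with adjusted p from 0.0367 to 0.539 over the 14 in limma. Quantile normalization (2.66; limma, adjusted p = 0.0455) and normexp background correction (2.45; limma, adjusted p = 0.0367) were among the 6. It also passed in 3 of 10 fits that left out an array, each time a culture array. No fit without an array of the groups compared passed. All 4 P0 and E11.5 progenitor arrays were on slide 1, and fitted to the arrays of that slide alone the adjusted p was 0.0403 in limma.

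By 19 days of culture Cited1 had fallen. It then averaged 0.06 ± 0.76, against 3.32 ± 0.45 in E11.5 progenitors (SD, n = 2 each), which is 9.58-fold lower (log2 change -3.26, SE 0.53; limma, adjusted p = 0.00677), and 16.9% of genes passed in that comparison. After 8 days it averaged 1.12 ± 0.79 (SD, n = 2), a log2 change of -2.20 from E11.5 progenitors with a 95% interval of -3.44 to -0.96, which did not pass (limma, adjusted p = 0.062), with 4.83% of genes passing. The difference between 19-day and 8-day culture was -1.06 on the log2 scale with an interval of -2.30 to 0.18 (limma, adjusted p = 0.296; 8.11% of genes passed).

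With slide as a block the Cited1 change was -4.38 after 19 days (limma, adjusted p = 0.0372) and -2.76 after 8 days (limma, adjusted p = 0.0702). The blocked 8-day value is by construction that of the single 8-day array on slide 1 set against the E11.5 mean there, and its spread comes from the other groups. Within slide 2 Cited1 differed by a log2 change of -1.62 between the 19-day arrays and the single 8-day array there, with no test given for 1 array. No 19-day array shared a slide with sorted cells, so the 19-day change has no value within a slide.

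Against P0 progenitors, where Cited1 was highest, both cultures were far lower. The log2 change was -5.72 after 19 days, or 52.6-fold lower (limma, adjusted p = 0.00125; 12.7% of genes passed), and -4.66 after 8 days, or 25.2-fold lower (limma, adjusted p = 0.00724; 3.98% of genes passed). The 8-day call was lost without P0 progenitors replicate 1 or replicate 2, at an adjusted p of 0.0688 or 0.0537 in limma. Against P0 non-progenitors the cultures differed by -0.83 after 19 days (interval -2.07 to 0.41; limma, adjusted p = 0.363; 9.41% of genes passed) and by 0.23 after 8 days (interval -1.01 to 1.47; limma, adjusted p = 0.817; 13.2% of genes passed).

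Ordered by mean, Cited1 ran from P0 progenitors through E11.5 progenitors, 8-day culture and P0 non-progenitors to 19-day culture. No pair of neighbours in that order passed the test. The P0 progenitors passed against the 3 lower groups, and E11.5 progenitors against P0 non-progenitors and 19-day culture.

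**Figure D2:**
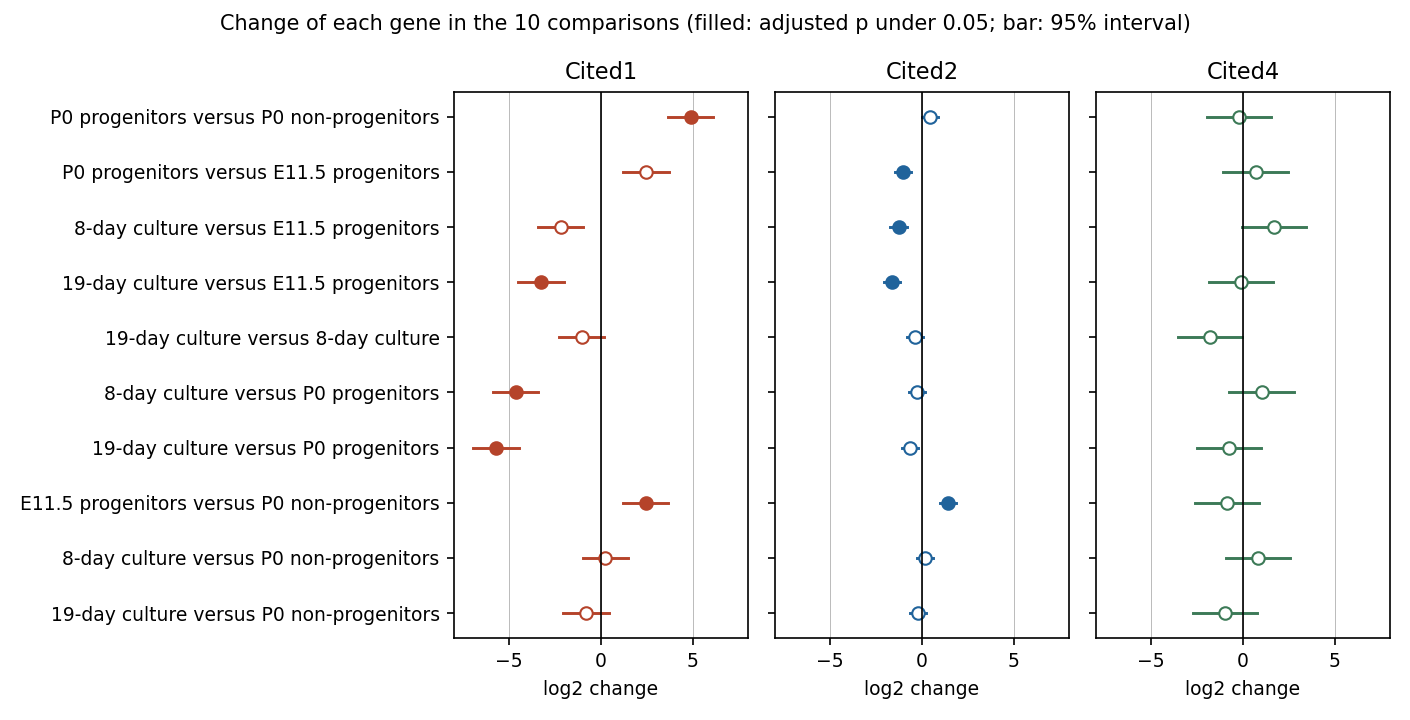
Log2 change (horizontal axis) of each gene in the 10 comparisons between groups, with 95% intervals from limma. Filled points passed an adjusted p of 0.05. Cited1 passed in 5 comparisons, Cited2 in 4 and Cited4 in none.

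Cited2 moved less, and its highest group was a different one. It was at 5.33 and 5.25 in E11.5 progenitors, against 3.86 and 3.87 in P0 non-progenitors. In P0 progenitors it was at 4.33 and 4.22, between those groups and overlapping neither. In culture it was at 4.14 and 3.87 after 8 days and at 3.37 and 3.88 after 19 days, all 4 below both E11.5 arrays.

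At birth the Six2-positive cells had a Cited2 level of 4.28 ± 0.08, against 3.86 ± 0.01 in P0 non-progenitors (SD, n = 2 each). That difference of 0.41 on the log2 scale did not pass (95% interval -0.03 to 0.85; limma, adjusted p = 0.262). P0 progenitors were 2.02-fold lower than E11.5 progenitors, which averaged 5.29 ± 0.06 (SD, n = 2), with a log2 change of -1.01 and an SE of 0.19 (limma, adjusted p = 0.0319). The arrays of both groups were on slide 1, and this fall also passed with a slide block (limma, adjusted p = 0.0374) and on slide 1 alone. E11.5 progenitors were 2.68-fold higher than P0 non-progenitors (limma, adjusted p = 0.00256). The fall between the ages was the least stable of the Cited2 calls, since it did not pass without any 1 of the 6 arrays of sorted cells (adjusted p of 0.0614 to 0.185).

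After 8 days in culture Cited2 averaged 4.01 ± 0.19 (SD, n = 2) and was 2.43-fold lower than in E11.5 progenitors (log2 change -1.28, SE 0.19; limma, adjusted p = 0.0157). After 19 days it averaged 3.63 ± 0.36 (SD, n = 2) and was 3.17-fold lower (log2 change -1.66, SE 0.19; limma, adjusted p = 0.00166). The step between 19-day and 8-day culture was -0.38 with an interval of -0.82 to 0.06 (limma, adjusted p = 0.287). With slide as a block the 8-day change was -1.15 (limma, adjusted p = 0.0582) and the 19-day change -1.39 (limma, adjusted p = 0.0585), so both calls were lost. Here too the blocked 8-day value rests on 1 array of 8-day culture, the one on slide 1. A fit to slide 1 alone gave the same 8-day change of -1.15, again from that 1 array. Within slide 2 the 19-day arrays differed from the single 8-day array by -0.25 on the log2 scale, again with no test given. The unblocked 8-day call was also lost without E11.5 progenitors replicate 1 (-1.24; limma, adjusted p = 0.0547) or 8-day culture replicate 2 (-1.15; limma, adjusted p = 0.0581).

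Against P0 progenitors the Cited2 difference was -0.65 in 19-day culture (interval -1.09 to -0.21; limma, adjusted p = 0.0624; -0.91 and 0.0247 without 19-day culture replicate 2) and -0.27 in 8-day culture (interval -0.71 to 0.17; limma, adjusted p = 0.474). Against P0 non-progenitors it was -0.24 in 19-day culture (interval -0.68 to 0.20) and 0.14 in 8-day culture (interval -0.30 to 0.58). Ordered by mean, Cited2 ran from E11.5 progenitors through P0 progenitors, 8-day culture and P0 non-progenitors to 19-day culture. Of the neighbours only E11.5 and P0 progenitors passed the test.

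The other Cited2 probe, downstream of the first, was dimmer on every array. It was at 0.55 and 0.73 in P0 progenitors, at 1.46 and 1.13 in E11.5 progenitors and at -0.10 and -0.06 in P0 non-progenitors. In culture it was at -0.61 and 0.14 after 8 days and at -0.92 and 0.09 after 19 days. It too was highest in E11.5 progenitors, with a correlation between both probes of 0.88 (Spearman 0.83) over the same 10 arrays. The 19-day change from E11.5 progenitors was -1.71 by this probe and passed (limma on 39807 probes, adjusted p = 0.0288). Its 8-day change of -1.53 (adjusted p = 0.0815), its difference of -0.66 between P0 and E11.5 progenitors (adjusted p = 0.454) and its difference of 1.38 between E11.5 progenitors and P0 non-progenitors (adjusted p = 0.0588) did not pass in limma.

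Cited4 lay low on the arrays, as little as 1.08 above the lowest signal that was well above background on the log2 scale. It was at -1.85 and -2.63 in P0 progenitors, at -2.72 and -3.12 in E11.5 progenitors and at -1.72 and -2.34 in P0 non-progenitors. In culture it was at 0.01 and -2.46 after 8 days and at -2.96 and -3.08 after 19 days. One 8-day array, replicate 1 on slide 1, thus stood 2.48 above the other on the log2 scale, with intensities of 286 and 39.9. The replicates of the other 4 groups differed by 0.12 to 0.78.

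None of the 10 comparisons passed for Cited4 in limma, and before adjustment 1 of them lay under the same threshold. Its SE of 0.75 was the largest of the members. The widest difference, -1.79 between 19-day and 8-day culture, had a 95% interval of -3.54 to -0.04 (limma, adjusted p = 0.212), and the difference of 1.70 between 8-day culture and E11.5 progenitors had one of -0.06 to 3.45 (limma, adjusted p = 0.267). Without 8-day culture replicate 2 these became -3.03 (limma, adjusted p = 0.035) and 2.93 (limma, adjusted p = 0.0449), resting then on 1 array. Between P0 progenitors and P0 non-progenitors the difference was -0.21 with an interval of -1.96 to 1.55, which allows a several-fold change either way.

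Over all 5 groups together, limma's moderated F test passed for Cited1 (adjusted p = 0.00177) and Cited2 (adjusted p = 0.00445) and not for Cited4 (adjusted p = 0.331), with 24.1% of genes passing. An exact permutation test over the 945 ways to pair the 10 arrays gave p = 0.00847 for Cited1, 0.0116 for Cited2 and 0.274 for Cited4, which became 0.0349, 0.0349 and 0.274 after adjustment over 6 such tests. The smallest p it can give is 0.00106.

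Cited1 was highest relative to Cited2 in P0 progenitors. The log2 ratio of Cited1 over Cited2 within an array, taken as its deviation from the mean over the 10 arrays, was 3.68 and 3.28 in P0 progenitors, -0.35 and 0.37 in E11.5 progenitors and -0.55 and -1.45 in P0 non-progenitors. It was -1.60 and -0.21 after 8 days in culture and -0.79 and -2.38 after 19 days. Both P0 progenitor arrays stood above the other 8, the nearest of which was E11.5 progenitors replicate 2 at 0.37. The difference over the 5 groups had an exact permutation p of 0.0497 and did not pass after adjustment over the 6 tests (0.066). The ratio of Cited1 over Cited4 had an exact permutation p of 0.0307 (adjusted 0.0614), and that of Cited2 over Cited4 one of 0.055 (adjusted 0.066).

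**Figure D3:**
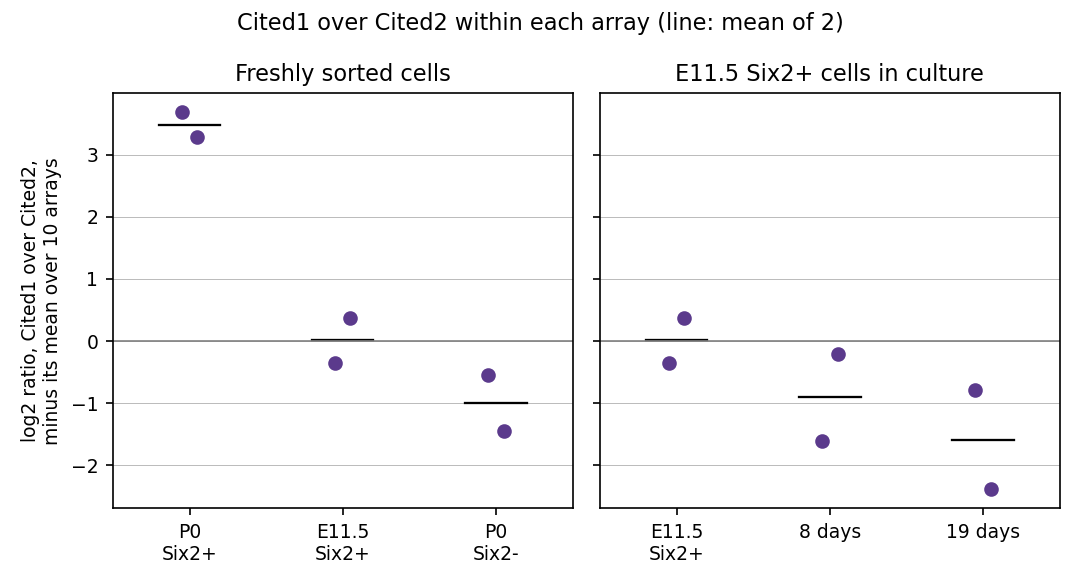
Log2 ratio of Cited1 over Cited2 within each array, minus its mean over 10 arrays (vertical axis), in freshly sorted cells (left) and over days of culture (right), with E11.5 progenitors in both panels. Points are arrays and bars are means of 2. P0 progenitors, at 3.68 and 3.28, stood above all other arrays.

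The genes whose log2 values followed Cited1 most closely over the 10 arrays were Znrd2 (Pearson correlation 0.97), Sncaip (0.96), Asic2 (0.94), Mycn (0.94) and N4bp2 (0.94), among 13218 genes well above background on at least 8 arrays. These correlations are descriptions over arrays that share groups and slides. Mycn, a growth-promoting transcription factor of the Myc family, averaged 5.70 in P0 progenitors, 4.79 in E11.5 progenitors and 3.77 in P0 non-progenitors, and 3.78 and 3.05 after 8 and 19 days of culture. Nfib, a nuclear factor I transcription factor, ran most against Cited1 (-0.97), with means of -2.58 in P0 progenitors, -0.30 in E11.5 progenitors, 3.32 in P0 non-progenitors, 3.08 in 8-day culture and 3.60 in 19-day culture.

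Cited2 was followed most closely by Qrich1 (0.97), Chchd2-ps (0.97), Oser1 (0.97), Dnajc8 (0.97) and Bzw1 (0.96). Qrich1, a transcriptional regulator of the integrated stress response, averaged 6.08 in E11.5 progenitors and between 5.03 and 5.32 in the other groups. Chchd2-ps names a pseudogene of Chchd2, and whether its probe also binds Chchd2 transcripts was not tested. Dkk2, a secreted Wnt modulator, ran most against Cited2 (-0.98), with a mean of 1.51 in 19-day culture. On both E11.5 arrays Dkk2 lay below the lowest signal that was well above background, so its level there, and with it the correlation, rests in part on values that were not detected. For Cited4 the closest were Camk1g (0.93), Sec14l2 (0.89), Cinp (0.88), Kpna6 (0.87) and Dera (0.87), and Krt6b ran most against it (-0.93). The means of Camk1g, Sec14l2, Cinp and Kpna6 were highest in 8-day culture through 1 of its 2 arrays, as for Cited4. Camk1g, for example, was at 0.10 on that array and at -1.49 on the other, and for each of these 4 genes the other array lay within the range of the remaining groups.

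Of 20 genes listed as partners of CITED proteins 17 were tested, while Isl1, Lhx3 and Tfap2e did not pass the filter on dim probes. In 19-day culture against E11.5 progenitors 3 of 17 rose and 4 fell, with 7.27% of all genes rising and 9.62% falling. The median change of the 17 was -0.07 against 0.01 over all genes. The 3 that rose were Tfap2c, Esr1 and Pparg, an AP-2 factor and nuclear receptors for oestrogen and for fatty acid ligands. On neither E11.5 array was Esr1 well above background, which makes its rise at least 16.2-fold. The Tfap2c mean of -4.36 in E11.5 progenitors lay below the lowest log2 signals well above background there, -4.25 and -4.20. The 4 that fell were Smad4, the shared mediator of TGF-beta and BMP signals (-1.07; limma, adjusted p = 0.00888), Ctnnb1, which encodes beta-catenin (-0.89; limma, adjusted p = 0.000799), Wt1, a zinc finger factor of progenitors and podocytes (-0.93; limma, adjusted p = 0.0381), and Crebbp (-0.60; limma, adjusted p = 0.0148). Under a slide block 0 rose and 1 fell.

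In P0 progenitors against P0 non-progenitors Wt1 rose (1.29; limma, adjusted p = 0.0191), while Tfap2a, Tfap2b and Pparg fell, with 4.24% of all genes rising and 4.16% falling. These shares depend on the scaling, since 1112 genes were higher and 1090 lower here, whereas under quantile normalization 34.9% of 1707 called genes were higher. Over 24 alternatives between 0 and 1 partner rose and between 1 and 4 fell. The AP-2 factor Tfap2b was at -0.12 and -0.90 in P0 progenitors, against 3.78 and 3.85 in P0 non-progenitors. On both E11.5 arrays Tfap2b was not well above background, which makes it at least 13.1-fold higher in P0 progenitors (limma, adjusted p = 0.00189). No other partner passed between P0 and E11.5 progenitors, where 2.03% of genes rose. There 533 genes were higher and 504 lower, against 65.4% higher of 928 under quantile normalization. In 8-day culture against E11.5 progenitors 0 of the 17 rose and 1 fell, Ctnnb1 (-0.46; limma, adjusted p = 0.0273), beside 2.77% of all genes rising and 2.06% falling. The count was 1 in 12 of 24 alternatives and 0 in the rest, among them the slide block. Hif1a and Epas1, the hypoxia factors that share a binding surface with CITED2, passed in none of these 4 comparisons. The Ep300 probe was dim, between -2.58 and -1.59 on 9 arrays and not well above background on the tenth.

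Part of the listed genes induced by hypoxia rose in culture, where Cited2 was lower. HIF1A activity was not measured, and a link of these genes to Cited2 was not tested. In 8-day culture against E11.5 progenitors 7 of 12 listed genes rose and 0 fell, with 2.77% of all genes rising. Their median change was 1.57 against 0.02 over all genes. Ndrg1, a hypoxia- and stress-induced gene, was at 2.01 and 1.50 in 8-day culture, against -1.81 and -2.36 in E11.5 progenitors (limma, adjusted p = 0.00445). Adm, the vasodilator peptide adrenomedullin, was at 2.17 and 1.20 in 8-day culture, against -2.50 and -2.14 in E11.5 progenitors (limma, adjusted p = 0.00766). Both genes were on each culture array above both starting arrays. Ddit4 (2.61), Car9 (2.23), Bnip3 (1.66), Pgk1 (0.90) and Egln3 (6.54) rose too, and Egln3 was not well above background on 1 of the 2 E11.5 arrays. The lactate dehydrogenase gene Ldha, at 0.03, and the glucose transporter gene Slc2a1, at 0.92, did not pass.

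After 19 days 6 of the 12 rose and 0 fell against E11.5 progenitors, beside 7.27% of all genes rising, with a median change of 0.75 against 0.01. Adm (4.02), Ndrg1 (2.32), Bnip3 (1.88), Egln3 (5.17), Pgk1 (0.64) and Pdk1 (1.36) passed. In P0 progenitors against E11.5 progenitors 0 of the 12 rose and 4 fell, beside 1.92% of all genes falling. These were Ldha (-2.05), Ddit4 (-2.02), Slc2a1 (-1.72) and Pgk1 (-1.33). Of these, Pgk1 was called higher in both cultures and Ddit4 in 8-day culture, whereas Ldha and Slc2a1 passed in neither. The 3 comparisons share the E11.5 arrays, and Cited2 was called lower in each of them by its brighter probe. The other Cited2 probe was lower too but passed only after 19 days. Both culture calls of Cited2 were lost with a slide block, and its P0 call without any 1 array of sorted cells. What moved the hypoxia-induced genes in each comparison was not tested. The 8-day count was 0 in a fit of the 2 groups alone, 3 without 8-day culture replicate 1, and 4 without E11.5 progenitors replicate 1, without either array of P0 non-progenitors or on slide 1 alone, which holds 1 array of 8-day culture. The 19-day count was 2 with a slide block or without 19-day culture replicate 1 and between 1 and 6 over 23 alternatives. The P0 count was 2 without E11.5 progenitors replicate 1 or P0 progenitors replicate 2 and between 1 and 4 over 24 alternatives.

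**Figure D4:**
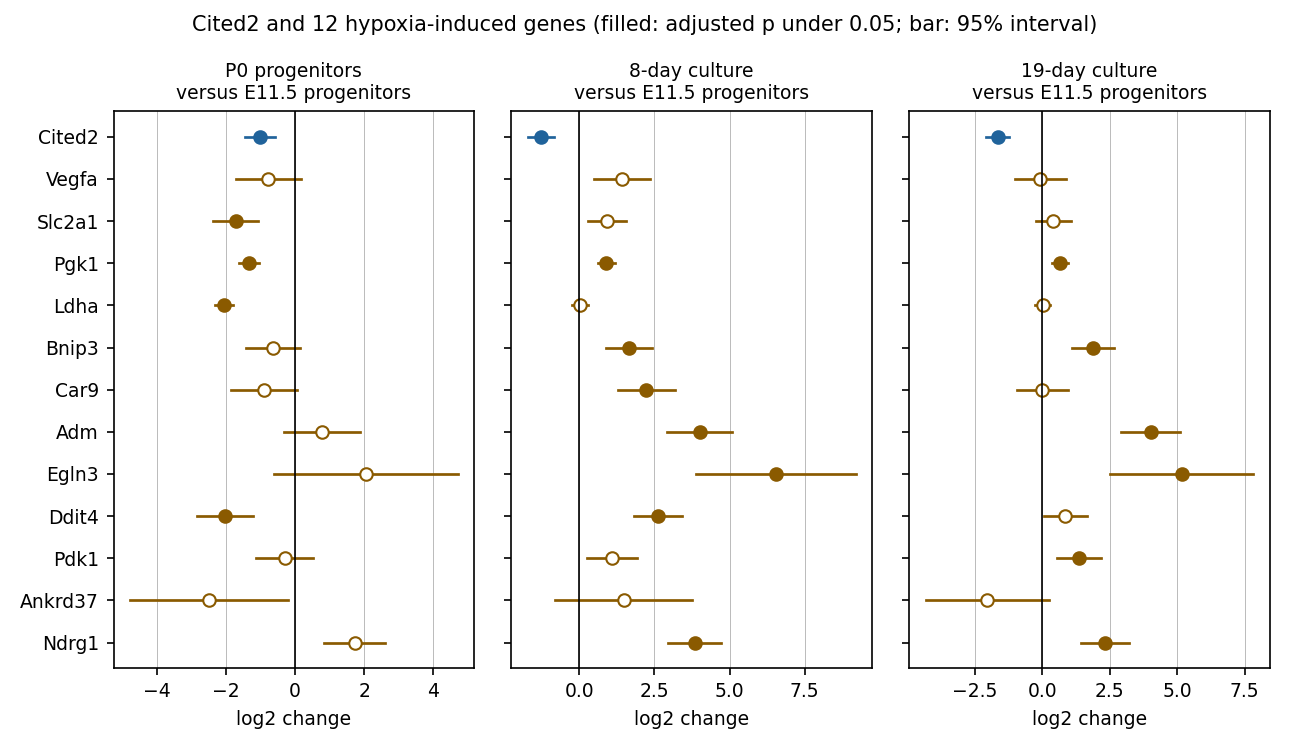
Log2 change (horizontal axis) of Cited2 and of 12 hypoxia-induced genes in P0 progenitors, 8-day culture and 19-day culture, each against E11.5 progenitors, with 95% intervals from limma. Filled points passed an adjusted p of 0.05. Cited2, drawn by its brighter probe, was lower in all 3, while 4 of the 12 genes fell in P0 progenitors and 7 and 6 rose in culture.

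Genes induced by SMAD factors, which include partners of CITED1, fell in part in culture. A link of these genes to Cited1 was not tested. In 8-day culture against E11.5 progenitors 0 of 7 rose and 4 fell, beside 2.06% of all genes falling, with a median change of -1.17 against 0.02 over all genes. These were Id1 (-2.89; limma, adjusted p = 0.00555), Id2 (-2.16; limma, adjusted p = 0.00654) and Id3 (-1.17; limma, adjusted p = 0.0389), inhibitors of DNA binding induced by BMP, and Skil (-2.14; limma, adjusted p = 0.0429), a SMAD corepressor. After 19 days Id1 and Id2 fell, and Ccn2, a matrix-associated growth factor, rose (6.47; limma, adjusted p = 0.00431). With a slide block 0 of the 7 rose after 19 days and 1 fell. Over 23 alternatives between 0 and 2 rose after 19 days and between 1 and 3 fell. Under quantile normalization, no intensity trend or a slide block the 8-day count was 2, and over 24 alternatives it was between 0 and 4.

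Cited1 is one of the genes used to mark uncommitted progenitors, and 13 others were set beside it. In P0 progenitors against P0 non-progenitors 4 of the 13 rose and 0 fell, beside 4.24% of all genes rising, among them Six2 (7.59; limma, adjusted p = 0.00173) and Pax2 (1.97; limma, adjusted p = 0.00319). That count was between 2 and 7 over 24 alternatives. Between P0 and E11.5 progenitors 0 rose and 2 fell, beside 1.92% of all genes falling. These were the homeobox genes Meox1 (-2.22; limma, adjusted p = 0.0397) and Meox2 (-3.80; limma, adjusted p = 0.0105). Six2 differed by -0.57 (limma, adjusted p = 0.717) and Cited1 by 2.46 (limma, adjusted p = 0.0504), and neither passed. The count of 2 held in 10 of 24 alternatives and was 1 without any 1 array of sorted cells or of 8-day culture. Of 10 genes of early nephron differentiation, 4 rose in that comparison, beside 2.03% of all genes rising, among them the nephron inducer Wnt4 (3.32; limma, adjusted p = 0.0272) and the Notch ligand gene Jag1 (2.95; limma, adjusted p = 0.0213). In limma 0 of the 10 rose without P0 progenitors replicate 1 or replicate 2.

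In 8-day culture 2 of the 13 progenitor genes fell against E11.5 progenitors, beside 2.06% of all genes falling, Pax2 (-5.60; limma, adjusted p = 0.000176) and Meox1 (-6.48; limma, adjusted p = 0.00132), while Six2 differed by 0.15 (limma, adjusted p = 0.945). That count was 4 with a slide block or without 8-day culture replicate 2, and 0 in a fit of the 2 groups alone. In 19-day culture 9 of the 13 fell and 0 rose, beside 9.62% of all genes falling, among them Six2 (-3.07; limma, adjusted p = 0.0252) and Sall1 (-5.69; limma, adjusted p = 0.00265). The count was 5 with a slide block and between 3 and 9 over 23 alternatives. The summed signal of 5 stroma markers, of which 4 or 5 were well above background on each array, was 1621 and 1245 percent of the 75th percentile in E11.5 progenitors, 1812 and 962 percent in 8-day culture and 10339 and 9440 percent in 19-day culture. The list did not move as one, since after 19 days the collagen gene Col3a1 (7.21) and the receptor gene Pdgfrb (3.29) rose, the stromal transcription factor gene Foxd1 fell (-6.95), and Ren1 and Tbx18 did not pass. The summed signal of 6 erythroid markers, of which 3 or 4 were well above background, was 5938 and 2054 percent in E11.5 progenitors, 117 and 106 percent in 8-day culture and 65.4 and 105 percent in 19-day culture. Of 5 erythroid markers tested, 3 fell in each culture against E11.5 progenitors, the globin genes Hbb-b2, Hba-a1 and Hbb-y, whose probes may not separate near-identical copies. The part of either cell type in the Cited1 and Cited2 changes in culture was not tested.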

How the data were processed

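Arrays were Agilent single-colour mouse arrays of 59305 non-control spots, hybridised with amplified Cy3-labelled cDNA, per the labels' protocols. The deposited intensity is the processed signal of Agilent Feature Extraction 11.5.1.1, background-subtracted within the array and not normalized between arrays, per the file headers. The file of P0 progenitors replicate 2 holds values of 3 significant digits and damaged gene names, so names were joined by probe from another array.

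Log2 intensities were reduced by each array's 75th percentile, spots of a probe were averaged, and of a gene's probes the one with the highest mean was used. Symbols came from RefSeq accessions for 28026 probes. The test covered 26205 genes without outlier spots that exceeded background well on each array of 1 or more groups. It was run in limma 3.58.1 in R 4.3.3, with the tables read by the data.table package, version 1.17.8, and fitted a mean per group over 10 arrays with an intensity trend and 5 residual and 2.49 prior degrees of freedom. Tests were two-sided, with Benjamini-Hochberg adjustment over all genes within each of 10 comparisons. Named were the members, the 5 genes most like and the 1 least like each of them, and members of the lists. Where a gene was not well above background on both arrays of 1 group, its fold is a lower bound against the lowest signal well above background.

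The members and lists were chosen with earlier results of these data known, and 1 gene each of the lists of CITED partners and of SMAD-induced genes is not reported here. The procedure was tested on simulated data. Alternatives were other normalizations, filters, probe rules, moderation, blocks, fits of fewer arrays and a minimum change, and fits to 1 slide were added after seeing the data. The number of arrays limits the precision.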

Additional observations from a re-analysis of the deposited data

How the results depend on the processing

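None of the member results changed direction where it was called, over up to 15 other settings and 10 fits without 1 array, and 28 changes of calls were losses and 14 were gains. Cited1 in P0 against E11.5 progenitors (2.46) passed under quantile normalization (2.66), normexp (2.45), a floor on low values, a filter on detection on all 10 arrays, a slide block and slide 1 alone (2.46 each), and ranged from 2.14 to 2.78 without 1 array. Cited1 lost its call in 19-day culture against E11.5 progenitors in a fit of these groups alone (-3.26, limma, adjusted p = 0.054), and in E11.5 progenitors against P0 non-progenitors when a change of at least 1 log2 unit was required (2.43). Without 1 array Cited1 ranged from 1.99 to 2.87 in E11.5 progenitors against P0 non-progenitors and from -5.22 to -4.10 in 8-day culture against P0 progenitors. Cited2 in P0 against E11.5 progenitors did not pass with the mean of its probes (-0.83), with its other probe (-0.66), or, at -1.01, without an intensity trend, with a replicate block or with the minimum change, and ranged from -1.07 to -0.96 without 1 array. For 8-day culture set against the E11.5 group, Cited2 did not pass with its other probe (-1.53), with a slide block (-1.15), or, at -1.28, without a trend, in a fit of these groups alone or with the minimum change (range -1.42 to -1.15 without 1 array, lost without E11.5 progenitors replicate 1 or 8-day culture replicate 2). In 19-day culture it did not pass with a slide block (-1.39) or the minimum change (-1.66). In 19-day culture against P0 progenitors it passed under quantile normalization (-0.68) and without 19-day culture replicate 2 (-0.91; range -0.91 to -0.39 without 1 array), and in E11.5 progenitors against P0 non-progenitors it did not with its other probe (1.38) or the minimum change (1.42). Cited4 in 8-day culture against E11.5 progenitors passed with a slide block, on 1 array of 8-day culture (2.93; range 0.46 to 2.93 without 1 array), and in 19-day against 8-day culture it ranged from -3.03 to -0.55. The exact permutation p over the groups was 0.0339 for Cited2, 0.0159 for Cited1 over Cited4 and 0.0222 for Cited2 over Cited4 under normexp, with the first lost and the others gained after adjustment. Without 1 array it ranged from 0.00529 to 0.0169 for Cited1, 0.00212 to 0.0402 for Cited2, 0.0201 to 0.426 for Cited4, 0.0296 to 0.0804 for Cited1 over Cited2, 0.00317 to 0.0899 for Cited1 over Cited4 and 0.00635 to 0.242 for Cited2 over Cited4. The replicate block changed no other call of a member. Same-numbered arrays deviated from their group means with correlations of -0.01 to 0.03 over 10 pairs of groups. Such correlations over all genes cannot tell whether same-numbered arrays came from the same litter or culture. The cause of the changed calls was not tested. Counts of genes called moved by over 1.5 times in 66 of 237 refits, and between 8-day culture and E11.5 progenitors they ran from 0 to 1785 genes against 1265. Under normexp the median change of all genes in 19-day culture was -0.17 against E11.5 progenitors. It was 0.01 in the main setting and -0.03 under quantile normalization.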
